A study of Mus musculus with 34 samples.

Results

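Fibroblast growth factor (FGF) signalling was followed through 10 genes: the ligands Fgf4, Fgf5, Fgf8 and Fgf15, the receptor Fgfr1, the feedback inhibitors Spry2, Spry4 and Dusp6, and the transcription factors Etv4 and Etv5. They were taken by gene symbol from every deposited expression table, and all 10 were listed both in the tables of cell cultures, which hold 37145 genes, and in those of embryo sections, which hold 46785. The study asked about the role of Evx1as, a long non-coding RNA next to the homeobox gene Evx1, in patterning of the mouse embryo. Of 34 samples, 30 have a table here. The cultures are mouse embryonic stem cells of the CJ9 line, strain 129S1/SVImJ, taken 4 days after withdrawal of leukemia inhibitory factor (LIF), the cytokine that keeps such cells undifferentiated. There were 3 wild-type libraries and 3 of a line labelled 4x polyA KI, a knock-in whose position, and whose number of clones, the labels do not give. Polyadenylation cassettes of this kind end transcription where they are inserted. The embryo libraries come from C57/B6 embryos of embryonic day 7, frozen and sectioned, from which tissue was cut out by laser, and are labelled heterozygous (Evx1as+/-) or homozygous (Evx1as-/-). No wild-type section was among them, so the heterozygous sections, which also carry the altered allele, served as the control. Primitive streak was represented by 6 heterozygous sections (layers 1, 3, 5, 7, 9 and 11) and 5 homozygous ones (layers 1, 5, 7, 9 and 11). Mesoderm was represented by 3 heterozygous (layers 7, 9 and 11) and 5 homozygous sections (layers 3, 5, 7, 9 and 11), and anterior tissue by 1 section of each genotype spanning layers 4 to 6. The labels do not say in which direction the layers are numbered, how the allele was made, or which embryo a section came from. Sections of 1 genotype may share an embryo, and every p-value over sections below is then too small.

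FGF ligands bind receptor tyrosine kinases together with heparan sulfate and switch on the Ras and ERK kinase relay. ERK activity induces the ETS factors Etv4 and Etv5, which act in the nucleus, and it also induces its own brakes: Sprouty proteins, which act on the relay, and Dusp6, a phosphatase that removes the activating phosphates from ERK. In the gastrulating mouse embryo Fgf8 and Fgf4 are made in the primitive streak, where cells leave the epiblast to become mesoderm, Fgf5 is a ligand of the epiblast, and Fgfr1 is the receptor needed for cells to move out of the streak. Fgf15 is known in the early neural plate and, later in life, as a gut hormone.

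To show what lies at the starts of some of the genes, the 250 bases before the RefSeq transcription start (build GRCm38.p6, the coding strand of the gene, 5′ to 3′) are given for 2 ligands and 2 feedback inhibitors. Windows of 5 of the 10 genes were used, and Fgf8, Fgf15, Fgfr1, Spry4 and Etv4 are not among them. Capitals mark the match to the ETS core CCGGAA, read on either strand. The Fgf5 window is chr5:98253934-98254183 on the plus strand, the Fgf4 window chr7:144861136-144861385 on the plus strand, the Dusp6 window chr10:99262981-99263230 on the plus strand and the Spry2 window chr14:105896820-105897069 on the minus strand.
Fgf5: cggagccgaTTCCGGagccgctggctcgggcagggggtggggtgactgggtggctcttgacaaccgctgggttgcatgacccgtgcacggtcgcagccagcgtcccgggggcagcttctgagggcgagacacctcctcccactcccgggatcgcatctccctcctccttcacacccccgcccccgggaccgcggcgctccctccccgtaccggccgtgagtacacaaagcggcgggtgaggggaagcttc
Fgf4: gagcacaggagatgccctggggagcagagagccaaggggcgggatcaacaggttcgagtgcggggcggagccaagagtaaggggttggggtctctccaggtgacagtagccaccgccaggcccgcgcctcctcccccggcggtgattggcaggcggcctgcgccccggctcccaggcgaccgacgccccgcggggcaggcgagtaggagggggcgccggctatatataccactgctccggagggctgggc
Dusp6: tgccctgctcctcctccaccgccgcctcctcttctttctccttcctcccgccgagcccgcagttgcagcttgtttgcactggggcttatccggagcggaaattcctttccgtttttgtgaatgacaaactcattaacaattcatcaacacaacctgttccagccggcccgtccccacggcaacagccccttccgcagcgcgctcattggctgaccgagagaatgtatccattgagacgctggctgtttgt
Spry2: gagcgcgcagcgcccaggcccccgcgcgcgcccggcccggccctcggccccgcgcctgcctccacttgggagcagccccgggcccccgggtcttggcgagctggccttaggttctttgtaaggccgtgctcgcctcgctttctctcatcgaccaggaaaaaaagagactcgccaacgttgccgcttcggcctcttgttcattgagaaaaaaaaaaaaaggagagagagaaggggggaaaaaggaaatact
The Fgf5 match, TTCCGG, begins 241 bases before the start and was the only one in the 6 windows of the 5 genes (Etv5 has 2). The ETS core was present in 12.0% of 32851 promoter windows of this length. Neither TCF/LEF letters (CTTTGAT or CTTTGTT, in 8.06% of all windows) nor the AP-1 letters TGANTCA (in 6.75%) occurred in the windows of these 5 genes. A match is a run of letters and not a binding site, and its absence says only that the letters are not in the window.

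Expression is given as FPKM, fragments mapped to a gene relative to its length and to the size of the library, a scale that corrects for gene length and library size, so levels of different genes can be compared within a library. The tables hold no read counts, and the depth of the libraries is unknown. The sum of FPKM was 502990 to 582184 in the cultures and 132929 to 376860 in the 21 sections with a group. A gene level of at least 1 FPKM was reached by 12758 to 13073 genes per culture library and by 6806 to 10959 per section, lowest in heterozygous streak layer 11. The non-coding RNA Yam1 took 1.07% to 33.1% of FPKM in these sections. No FPKM was found under this symbol in culture, where it was not checked whether the gene is listed. The share of genes encoded by the mitochondrial genome was 3.38% to 5.53% in heterozygous sections, all above the 2.03% to 3.21% of homozygous ones.

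Evx1as, listed as 5730457N03Rik, was measured first as a check of the labels. In culture it stood at 5.99, 5.84 and 3.94 FPKM in wild type and at 0.0674, 0.137 and 0.0798 FPKM in the knock-in. In sections it ranged from 0 to 4.57 FPKM in heterozygous and from 0 to 0.159 FPKM in homozygous embryos, and the highest homozygous values were above the lowest heterozygous ones, so it checks the labels of only part of the sections. The summed level of 8 streak markers was 278 to 480 FPKM in heterozygous and 235 to 435 FPKM in homozygous streak, and 13.7 to 75.3 FPKM in mesoderm of both genotypes. Among the streak markers, T, a defining streak factor, was 132.8 to 297 FPKM in heterozygous and 50.8 to 105 FPKM in homozygous streak, while another, Mixl1, was 3.56 to 179.9 FPKM in heterozygous and 139 to 280.3 FPKM in homozygous streak. Of the 10 mesoderm markers, 9 were listed, and their sum overlapped between regions, at 7.03 to 182 FPKM in streak and 37.9 to 171 FPKM in mesoderm. Their defining members Mesp1 and Pdgfra likewise did not separate the regions. Anterior sections had 12.4 and 14.5 FPKM of the epiblast factor Sox2, against 0 to 3.39 FPKM in streak and mesoderm. Utf1 and Pou3f1 were also higher in both anterior sections than in any streak or mesoderm section. Otx2 (18.3 and 40.7 FPKM in anterior tissue) and Pou5f1 (62.7 and 111.7 FPKM) did not separate it, reaching 45.7 and 200.1 FPKM in homozygous streak. Nanog, at 1.35 and 3.53 FPKM in anterior tissue, was below its streak levels of 3.59 to 35.3 FPKM.

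In culture the ligands Fgf15 and Fgf4 moved most. Between wild-type and knock-in day 4 cultures, Fgf4, Fgf5 and Fgf15 rose, the receptor Fgfr1 fell, and the ETS genes Etv4 and Etv5 rose by smaller amounts. The test was limma on log2(FPKM + 1), with p-values adjusted by the Benjamini-Hochberg method over all genes tested and a threshold of 0.05. Of the 10 genes, 5 rose and 1 fell, where 32.4% of all 13133 genes tested were called, 16.2% upwards and 16.2% downwards. The median log2 change of the 10 genes was 0.39, against 0.02 over all genes. Nothing in the labels ties the 3 libraries of a line to separate cultures, so these p-values measure the spread between samples that may be technical. A plot of the culture levels shows every library.

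**Figure D1:**
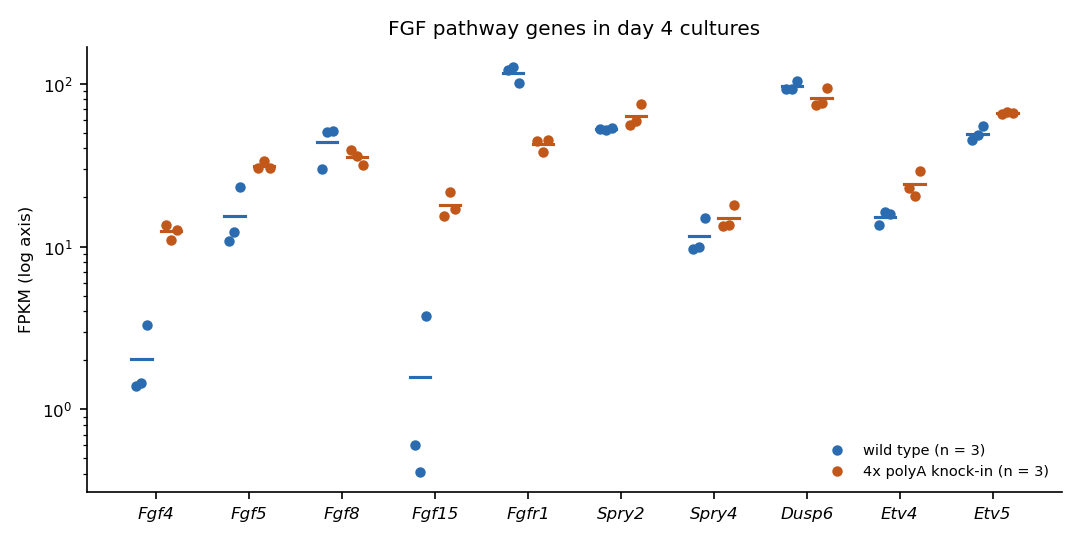
FPKM (log axis) of the 10 genes in 3 wild-type (blue) and 3 knock-in (orange) day 4 libraries, each point 1 library and each bar the mean. The knock-in points of Fgf4 and Fgf15 lie above all wild-type points, those of Fgfr1 lie below, and wild-type replicate 3 is the highest wild-type library for Fgf4, Fgf5 and Fgf15.

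Fgf4 was at 1.40, 1.44 and 3.29 FPKM in wild-type replicates 1 to 3 and at 13.5, 10.9 and 12.7 FPKM in the knock-in. The groups did not overlap, and the log2 change was 2.19 ± 0.25 (SE, adjusted p = 0.000857). Fgf15, its neighbour on chromosome 7, was at 0.607, 0.411 and 3.74 FPKM in wild type and at 15.4, 21.5 and 17.1 FPKM in the knock-in. Its log2 change of 3.09 ± 0.43 (adjusted p = 0.00191) was the largest of the 10, and the deposited interval of wild-type replicate 3, 2.57 to 4.92 FPKM, lay above those of the other wild-type libraries, whose upper ends were 1.11 and 0.969 FPKM. Fgf5 was at 10.8, 12.3 and 23.3 FPKM in wild type and at 30.4, 33.7 and 30.3 FPKM in the knock-in. Its log2 change was 1.05 ± 0.26 (adjusted p = 0.0177), again with no overlap and with wild-type replicate 3 nearest to the knock-in. Fgf8, the most abundant of the 4 ligands in wild-type culture, stood at 29.9, 50.5 and 51.2 FPKM in wild type and 39.0, 36.0 and 31.5 FPKM in the knock-in. These ranges overlapped and the log2 change of -0.26 was not past the threshold (adjusted p = 0.380). On this per-length scale, Fgf8 was at 43.8 ± 12.1 FPKM and Fgf4 at 2.04 ± 1.08 FPKM in wild type (mean ± SD, n = 3), and at 35.5 ± 3.8 and 12.4 ± 1.3 FPKM in the knock-in.

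Fgfr1 was at 121, 126.2 and 101 FPKM in wild type and at 44.3, 38.2 and 44.9 FPKM in the knock-in, without overlap. It fell by 1.43 on the log2 scale (SE 0.13, adjusted p = 0.000439). The culture tables list a second identifier under the Fgfr1 symbol, at 11.9, 31.3 and 11.8 FPKM in wild type and 13.1, 6.92 and 14.4 FPKM in the knock-in. How the authors' counting shared fragments between the overlapping rows is not given, and the second row was not tested as a member.

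Among the feedback inhibitors and ETS genes the changes were small. Etv4 was at 13.5, 16.3 and 15.8 FPKM in wild type and 23.0, 20.4 and 29.2 FPKM in the knock-in, a log2 change of 0.63 ± 0.16 (adjusted p = 0.0226). Etv5 was at 45.0, 48.7 and 54.6 FPKM and at 65.2, 67.4 and 66.4 FPKM, a log2 change of 0.42 ± 0.12 (adjusted p = 0.0266). Neither gene's groups overlapped. Spry2 was higher in every knock-in library (56.0, 59.3 and 75.3 FPKM) than in any wild-type one (53.0, 51.8 and 53.7 FPKM), but its log2 change of 0.25 was not past the threshold (adjusted p = 0.196). Spry4 had a log2 change of 0.36 (adjusted p = 0.207) and Dusp6 one of -0.26 (adjusted p = 0.166), both with overlapping groups. In all, 6 of the 10 genes were without overlap upwards and 1 downwards, where 24.4% and 24% of all genes tested did so.

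The smaller changes depended on single libraries. Fgf5 was past the threshold in the full set and had adjusted p = 0.0541 without wild-type replicate 1, 0.0584 without wild-type replicate 2 and 0.0593 without knock-in replicate 2. For Etv4 the adjusted p was 0.0778 without wild-type replicate 1. For Etv5 it was 0.0932 and 0.0722 without wild-type replicate 1 or 2, and 0.0611 and 0.0870 without knock-in replicate 1 or 2. Conversely Fgf8 fell by 0.51 on the log2 scale (adjusted p = 0.0487) without wild-type replicate 1 and Dusp6 fell by 0.37 (adjusted p = 0.0496) without knock-in replicate 3. Fgf4, Fgf15 and Fgfr1 were past the threshold whichever library was left out. Without the filter on low values, Fgf5 (adjusted p = 0.0686) and Etv4 (adjusted p = 0.0520) were not past it. Sequencing lane 3 held 2 knock-in libraries and 1 of wild type, by the lane number carried with the tables, and among them all 10 genes kept the sign of their log2 change, at 2.39 for Fgf4, 3.84 for Fgf15 and -1.59 for Fgfr1.

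Of 75 other FGF pathway genes tested in the same comparison, 7 rose, 28 fell and 40 were not called, where 16.2% of all genes were called upwards and 16.2% downwards. These shares are also the ones to set beside the counts by role, of which the 3 of 18 inhibitors that rose lie near them. None of 14 receptors and co-receptors rose and 7 fell, among them Gpc4, a cell-surface heparan sulfate proteoglycan (40.8 to 14.3 FPKM, log2 change -1.42). Flrt3, at 4.79 and 0.854 FPKM, is also counted among those that fell. It passed the level filter only through wild type, so nothing is drawn from its call. Of 18 genes listed as feedback inhibitors, 3 rose and 8 fell. Dusp4 and Dusp14, phosphatases of the same family as Dusp6, fell by 2.20 and 2.06 on the log2 scale (139 to 29.7 and 93.8 to 21.7 FPKM). Lgals3, which codes for a galectin and has this role only by the list used here, fell by 2.47. Spry1, another Sprouty, rose by 0.65, Spred3 by 0.64 and Dusp7 by 0.82. Among 19 further target genes, 2 rose and 11 fell: Etv1, which belongs with Etv4 and Etv5 to 1 group of ETS factors, rose from 2.19 to 5.42 FPKM (log2 change 1.01) and Myc rose by 0.90, while Phlda1 fell by 1.73. Of 4 further genes listed as ligands and tested, Fgf17, from the same ligand group as Fgf8, fell from 49.6 to 12.5 FPKM (log2 change -1.87). Fgf11, at 0.366 and 1.78 FPKM, is counted among those that rose and is a ligand only by the list used here. It passed the level filter only through the knock-in, so nothing is drawn from its call. The median log2 change of these 75 genes was -0.28. Alongside, the summed level of 10 epiblast markers was 831 to 996 FPKM in wild type and 1798 to 2054 FPKM in the knock-in, and that of 8 streak markers 351 to 491 FPKM and 108 to 154 FPKM. T was at 124 to 199 FPKM in wild type and 6.71 to 16.5 FPKM in the knock-in. Fewer cells of a type and less RNA per cell cannot be told apart in bulk libraries, and the part of these marker shifts in the ligand changes was not tested.

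In the embryo, Fgf8 was higher in homozygous than in heterozygous sections of both regions. In the heterozygous streak it stood at 10.1, 10.9, 7.64, 4.65, 1.26 and 5.78 FPKM in layers 1, 3, 5, 7, 9 and 11. In the homozygous streak it stood at 18.5, 25.9, 23.7, 37.6 and 13.1 FPKM in layers 1, 5, 7, 9 and 11, every section above every heterozygous one. Heterozygous mesoderm had 0.896, 1.67 and 1.09 FPKM in layers 7, 9 and 11, and homozygous mesoderm 22.2, 13.6, 13.0, 4.41 and 2.77 FPKM in layers 3, 5, 7, 9 and 11. The mesoderm groups did not overlap either, and the deposited intervals of the heterozygous mesoderm values began at 0. Within streak alone the log2 change was 1.84 ± 0.40 (adjusted p = 0.172), with the homozygous section higher in 5 of 5 layers that had both. Within mesoderm alone it was 1.63 ± 0.41 (adjusted p = 0.109), higher in 3 of 3 layers. With both regions in 1 fit it was 1.88 ± 0.30 (adjusted p = 0.00400), the mean over sections being 4.88 ± 3.95 FPKM in 9 heterozygous and 17.5 ± 10.4 FPKM in 10 homozygous sections (mean ± SD). The genotype change in mesoderm minus that in streak was 0.03 ± 0.63 for Fgf8 (adjusted p = 0.999), which does not show that the regions respond alike. In that test 0 of the 10 genes passed by limma, where 0% of all genes were called. An unadjusted p under 0.05 was reached in it by 1 of the 10, against 3.54% of all genes. Where sections share an embryo, which the labels do not tell, these p-values are too small.

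Of the 10 genes, Fgf8 alone was past the threshold over both regions, where 1.25% of 9527 genes were called. In streak 0 of 10 and in mesoderm 0 of 9 genes passed by limma, where 0.0201% and 0.196% of all genes were called. An unadjusted p under 0.05 was reached by 3 and 2 of them, against 10.2% and 15.5% of all genes. Fgf4 was below the level filter in mesoderm. Genes whose groups did not overlap upwards made up 0.745% of all genes in streak, where Fgf8 was 1 of them, and 8.6% in mesoderm, where Fgf8 and Dusp6 were. Counts of matched layers, for Fgf8 and the genes below, were not made over all genes. Across all genes tested the median log2 change was 0.24 over both regions, 0.25 in streak and 0.31 in mesoderm, so homozygous sections stood higher in general. After each library was scaled to remove such a shift, the Fgf8 change was 1.64 (adjusted p = 0.0144). It was past the threshold whichever of the 19 sections was left out, with an adjusted p of 0.00207 to 0.0137. Without layer 1 the change was 2.01 (adjusted p = 0.00337) and without layer 11 it was 2.10 (adjusted p = 0.0117), each layer being removed from both genotypes. The 12 visceral endoderm markers summed to 62.4 to 454 FPKM in heterozygous and 53.5 to 1884 FPKM in homozygous streak, and to 62.5 to 154 FPKM and 131 to 1221 FPKM in mesoderm, with Afp listed at 0 in all 3 heterozygous mesoderm sections. Of these 12, 5 averaged under 1 FPKM in heterozygous and 2 in homozygous streak, and 9 and 3 in mesoderm. The heterozygous mesoderm sums thus rest on few of the markers. The 10 epiblast markers summed to 83.4 to 204 FPKM and 177 to 391 FPKM in streak, and to 19.0 to 74.9 FPKM and 64.7 to 178 FPKM in mesoderm. The 2 highest visceral endoderm sums, in homozygous streak layer 11 (1884 FPKM) and homozygous mesoderm layer 9 (1221 FPKM), came with Fgf8 levels of 13.1 and 4.41 FPKM, the lowest of homozygous streak and the next to lowest of homozygous mesoderm. The highest epiblast sums in streak and mesoderm, 391 FPKM in homozygous streak layer 9 and 178 FPKM in homozygous mesoderm layer 3, came with the highest Fgf8 levels of those groups. In the heterozygous groups the highest epiblast sums were 204 FPKM in streak layer 5 and 74.9 FPKM in mesoderm layer 7. Neither came with the highest Fgf8 level of its group (10.9 and 1.67 FPKM), and the mesoderm one came with the lowest, 0.896 FPKM. The highest heterozygous visceral endoderm sums, 454 FPKM in streak layer 1 and 154 FPKM in mesoderm layer 9, came with the next to highest and the highest Fgf8. The part of epiblast and visceral endoderm cells in the Fgf8 change was not tested.

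**Figure D2:**
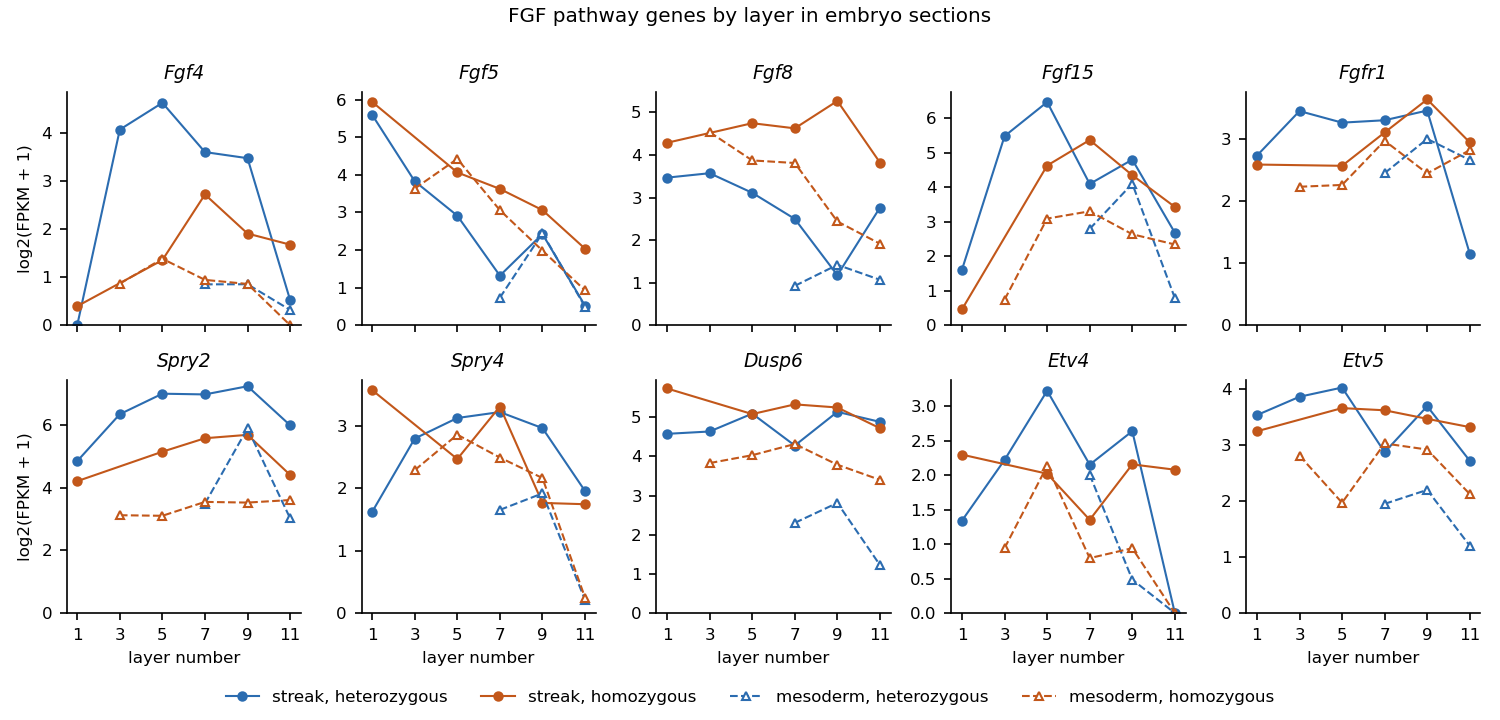
Level, as log2(FPKM + 1), of each gene against layer number in streak (filled circles, solid lines) and mesoderm (open triangles, dashed lines), heterozygous in blue and homozygous in orange, each point 1 section. Every homozygous Fgf8 point lies above the heterozygous point of the same region and layer, and for Spry2 in streak the order is the opposite.

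Spry2, the most abundant of the 3 feedback inhibitors in heterozygous streak, had a difference of the opposite sign. It stood at 27.8, 80.3, 127, 124.8, 149.8 and 62.6 FPKM in layers 1, 3, 5, 7, 9 and 11 of heterozygous streak. Homozygous streak had 17.5, 34.5, 46.8, 50.5 and 20.2 FPKM in layers 1, 5, 7, 9 and 11, lower in 5 of 5 matched layers, although the ranges overlapped through heterozygous layer 1. The log2 change in streak was -1.45 ± 0.41 (adjusted p = 0.310). In mesoderm it was -0.68 ± 0.62 (adjusted p = 0.634), lower in 1 of 3 matched layers, with heterozygous layer 9 at 58.5 FPKM and the other 7 sections between 7.15 and 11.2 FPKM. Over both regions the log2 change was -1.10 ± 0.36 and not past the threshold as deposited (adjusted p = 0.0951), with 6 of 8 matched layers lower, and it was past it after scaling (-1.38, adjusted p = 0.0260), where 1.69% of all genes were called.

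Dusp6, the ERK phosphatase, had genotype groups that stood apart in mesoderm and overlapped in streak. Heterozygous mesoderm had 3.94, 6.03 and 1.34 FPKM in layers 7, 9 and 11 and homozygous mesoderm 13.2, 15.4, 18.9, 12.8 and 9.57 FPKM in layers 3 to 11, with no overlap. The log2 change was 1.58 ± 0.42 (adjusted p = 0.130) there and 0.47 ± 0.28 (adjusted p = 0.566) in streak, where levels were 18.4 to 34.2 FPKM and 25.4 to 52.3 FPKM. The difference between the regions was 1.20 ± 0.46 (unadjusted p = 0.0173, adjusted p = 0.999). Over both regions Dusp6 changed by 0.96 ± 0.25 (adjusted p = 0.0570), and 0.72 after scaling (adjusted p = 0.127).

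Fgf5 was higher in homozygous streak in 5 of 5 matched layers, with a log2 change of 1.23 ± 0.36 (adjusted p = 0.324), and over both regions in 7 of 8 with 1.05 ± 0.31 (adjusted p = 0.0807). Leaving out 1 section put Fgf5 or Dusp6 past the threshold in 7 of 19 cases. For Fgf5 these were heterozygous streak layer 1 (adjusted p = 0.0469), homozygous mesoderm layer 3 (0.0375) and heterozygous mesoderm layer 9 (0.0415). For Dusp6 they were homozygous mesoderm layer 3 (0.0344), homozygous streak layer 5 (0.0474) and heterozygous streak layers 5 (0.0439), 9 (0.0280) and 11 (0.0428).

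The other genes showed no genotype difference past the threshold. Fgf4 and Fgf15, the ligands that rose in culture, had means of 10.2 and 30.1 FPKM in heterozygous and 2.48 and 18.6 FPKM in homozygous streak, with overlapping ranges and log2 changes of -1.15 ± 0.77 and -0.63 ± 0.87 (adjusted p = 0.605 and 0.800). For Fgfr1, means were 7.34 ± 3.39 and 7.11 ± 2.65 FPKM (SD) in streak, a log2 change of 0.09 ± 0.42 that turned to -0.12 after scaling, against the fall of 1.43 in culture. The cultures and the sections differ in tissue, strain and table, and the 2 changes were not compared by a test. Spry4, Etv4 and Etv5 had changes of -0.003, 0.09 and 0.04 in streak (adjusted p = 0.999, 0.956 and 0.970), and those of Etv4 and Etv5 turned negative after scaling. In mesoderm Etv5 was higher in 3 of 3 matched homozygous layers, with means of 2.58 and 5.18 FPKM (log2 change 0.69 ± 0.41, adjusted p = 0.460). Of 52 other pathway genes tested over both regions, 0 passed by limma. An unadjusted p under 0.05 was reached by 10 of them, near the share of 20.2% over all genes. Their median log2 change was 0.21, against 0.13 for the 10 genes and 0.24 for all genes.

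**Figure D3:**
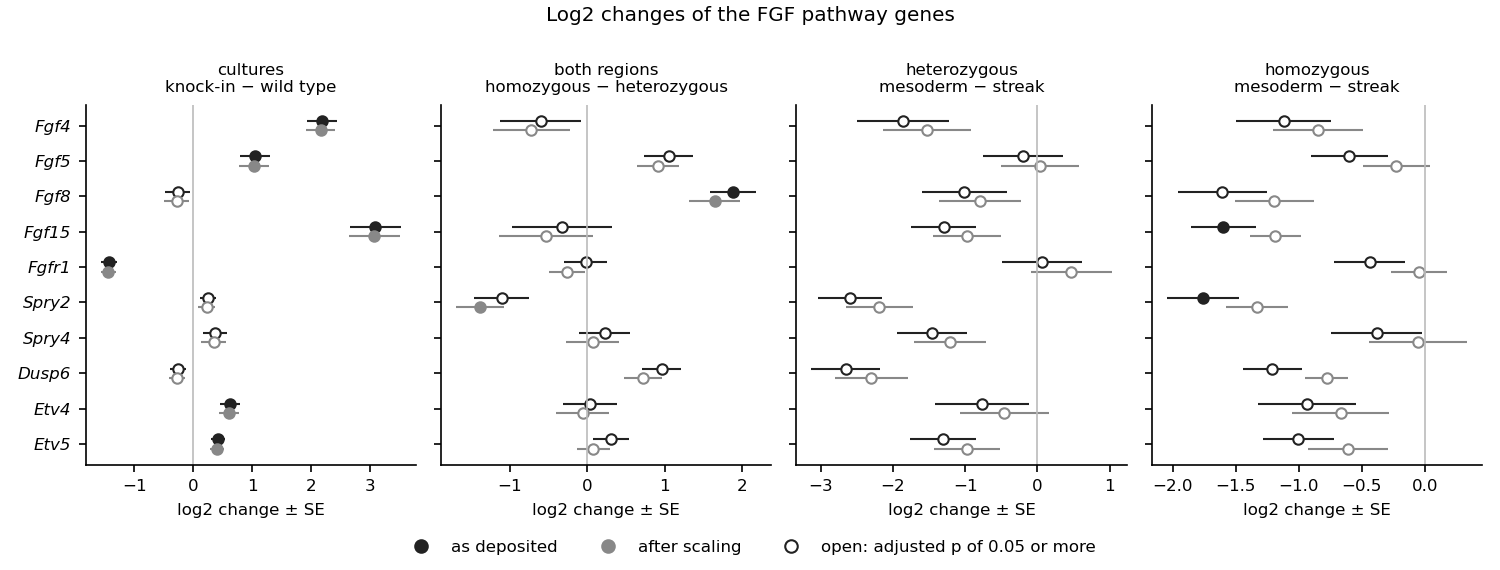
Log2 change ± SE of each gene in 4 comparisons, from values as deposited (black) and after scaling each library (grey), filled where the adjusted p was under 0.05. Fgf8 is filled in both forms in the comparison of genotypes, Spry2 there only after scaling, and the mesoderm to streak changes lie mostly below 0.

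Between tissues, Fgf15 and Spry2 were lower in mesoderm than in streak in homozygous embryos by the test, and most of the other genes had differences of the same sign. Sections of both tissues could be matched by layer in 3 heterozygous and 4 homozygous layers, and Fgf15, Spry2, Dusp6 and Etv5 were lower in mesoderm in all 7 matched pairs. The share of all genes lower in every pair was not counted, so nothing is drawn from that count. In the homozygous pairs Fgf15 and Spry2 passed and the other 8 genes were not past the threshold, where 0.648% of 9419 genes were called (0.17% after scaling). Fgf4, under 1 FPKM on average in mesoderm, entered the fits of both genotypes only through streak. Its direction was thereby fixed, so nothing is drawn from it, though the counts and medians given here include it. All 10 changes in the homozygous pairs were negative, with a median of -1.06 against -0.36 over all genes. In the heterozygous pairs 0 of 10 genes passed by limma, where 0.231% of 8672 genes were called. In these pairs 6 of the 10 had an unadjusted p under 0.05, against 12.6% of all genes. There 9 of 10 changes were negative, with a median of -1.30 against -0.33 over all genes. Here too the p-values are too small where sections share an embryo.

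**Figure D4:**
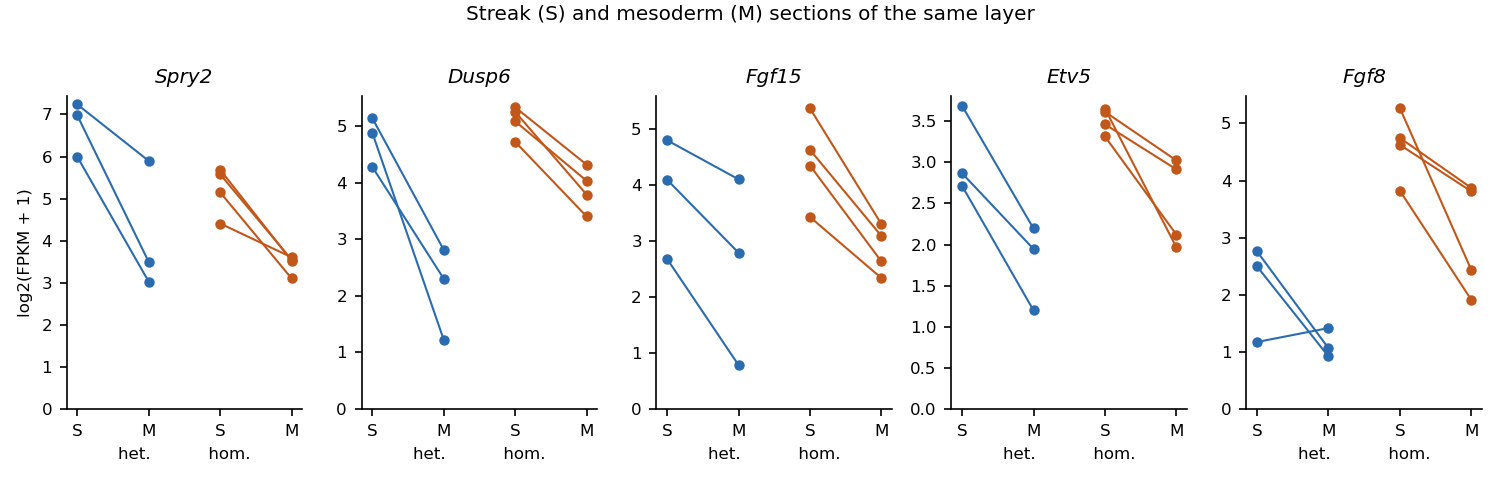
Level, as log2(FPKM + 1), of 5 genes in streak (S) and mesoderm (M) sections of 1 layer, joined by a line, for 3 heterozygous (blue) and 4 homozygous (orange) layers. All lines fall for Spry2, Dusp6, Fgf15 and Etv5, and 6 of 7 fall for Fgf8.

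Spry2 in homozygous layers 5, 7, 9 and 11 was at 34.5, 46.8, 50.5 and 20.2 FPKM in streak and at 7.60, 10.7, 10.5 and 11.2 FPKM in mesoderm. The groups did not overlap, and the log2 change was -1.76 ± 0.29 (adjusted p = 0.0314). Fgf15 in the same layers was at 23.6, 40.1, 19.3 and 9.74 FPKM in streak and 7.50, 8.83, 5.20 and 4.05 FPKM in mesoderm, with a log2 change of -1.60 ± 0.26 (adjusted p = 0.0310). Neither call was kept after scaling (adjusted p = 0.113 for Spry2 and 0.0919 for Fgf15). Leaving out any 1 of the 8 sections, which drops its layer pair, ended the Fgf15 call (adjusted p 0.0817 to 0.322), and the Spry2 call was ended by each section other than mesoderm layer 11 (adjusted p 0.0460 without it, up to 0.317 for the others). Dusp6 in the homozygous pairs changed by -1.21 ± 0.23 (adjusted p = 0.0567) and Fgf8 by -1.61 ± 0.35 (adjusted p = 0.0737), Fgf8 being at 25.9, 23.7, 37.6 and 13.1 FPKM in streak and 13.6, 13.0, 4.41 and 2.77 FPKM in mesoderm. Etv5 changed by -1.005 ± 0.28 (adjusted p = 0.107).

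In the heterozygous pairs Dusp6 and Spry2 had the largest changes of the 10 genes on the log2(FPKM + 1) scale, while the ratio of mean FPKM, streak to mesoderm, was 11.7 for Fgf4, 7.18 for Dusp6 and 4.44 for Spry2. Without layer 11 the log2 change was -2.69 for Fgf4, -2.41 for Spry2 and -2.15 for Dusp6. Fgf4 averaged 0.617 FPKM in these mesoderm sections and passed the level filter only through streak, so nothing is drawn from its change or ratio. Dusp6 in layers 7, 9 and 11 was at 18.4, 34.2 and 28.5 FPKM in streak and 3.94, 6.03 and 1.34 FPKM in mesoderm, a log2 change of -2.65 ± 0.48 (adjusted p = 0.0676). Spry2 was at 124.8, 149.8 and 62.6 FPKM in streak and 10.3, 58.5 and 7.15 FPKM in mesoderm, a log2 change of -2.60 ± 0.45 (adjusted p = 0.0587). Spry2, Spry4, Dusp6 and Etv5 had no overlap between the tissues there, where 10% of all genes did not overlap downwards, and in the homozygous pairs Fgf15, Spry2, Dusp6 and Etv5 did not, where 16.1% of genes did not. The Dusp6 difference between the genotypes was 1.44 ± 0.48 (homozygous minus heterozygous, unadjusted p = 0.0113, adjusted p = 0.693), and 0 of 10 genes passed that test, where 0.0109% of 9146 genes were called. Of 53 other pathway genes in the homozygous pairs 1 was called, Fgf17, which averaged 4.47 FPKM in streak and was listed at 0 in mesoderm. It passed the level filter only through streak, so nothing is drawn from that call. The streak marker sum, at 235 to 480 FPKM in streak and 13.7 to 75.3 FPKM in mesoderm, moved with these differences, and its part in them was not tested.

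Along the layers of the heterozygous streak, Fgf5 fell as the layer number rose. In heterozygous streak it was at 47.4, 13.2, 6.54, 1.49, 4.37 and 0.431 FPKM in layers 1, 3, 5, 7, 9 and 11, a slope of -0.45 ± 0.07 on the log2 scale per layer number (adjusted p = 0.0248). In homozygous streak it was at 60.5, 15.7, 11.4, 7.35 and 3.10 FPKM in layers 1, 5, 7, 9 and 11, lower at each next layer, a slope of -0.37 ± 0.08 (unadjusted p = 0.000288, adjusted p = 0.396). The difference between these slopes was 0.07 ± 0.11 (adjusted p = 0.925). By limma 0 of 10 genes passed that test, where 0% of all genes were called. An unadjusted p under 0.05 was reached in it by 0 of the 10, against 5.47% of all genes. Sections sharing an embryo would make these p-values too small as well. No other gene of the 10 had a slope past the threshold in heterozygous streak, where 0.614% of 9932 genes did. In homozygous streak 0 of the 10 did by limma, where 0% of all genes did. An unadjusted p under 0.05 was reached there by 2 of the 10, against 3.51% of all genes. The heterozygous slope of Fgf5 was -0.41 after scaling (adjusted p = 0.0192). It was -0.36 without layer 1 in both genotypes (adjusted p = 0.353) and -0.44 without layer 11 (adjusted p = 0.206). Leaving out single sections ended the call for heterozygous layer 1 (adjusted p = 0.313), heterozygous layer 11 (0.165) and homozygous layer 7 (0.0520). Layer 1 also differed in its markers: 6 definitive endoderm markers summed to 513 FPKM in heterozygous and 620 FPKM in homozygous streak there. The other streak sections had 2.97 to 101 FPKM, and the part of this difference in the Fgf5 slopes was not tested.

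Another pattern along the heterozygous streak, low at both ends and highest at layer 5, was seen for Fgf4, Fgf15 and Etv4. Each layer is 1 section, and layer 11 had the fewest genes at 1 FPKM, 6806, and an FPKM sum of 177533. The part of that library in the low end at layer 11 was not tested. Nor was that of the high definitive endoderm markers in the low end at layer 1. Fgf4 was at 0, 15.8, 23.8, 11.2, 10.1 and 0.439 FPKM in layers 1, 3, 5, 7, 9 and 11, and Fgf15 at 2.05, 43.5, 87.2, 16.0, 26.7 and 5.39 FPKM. Etv4 was at 1.53, 3.66, 8.34, 3.45, 5.22 and 0 FPKM, and Etv5 was also highest at layer 5, at 15.2 FPKM. In homozygous streak Fgf4 and Fgf15 both peaked at layer 7, Fgf4 at 5.59 FPKM and Fgf15 at 40.1 FPKM, and layer 1 was again lowest, at 0.315 and 0.374 FPKM. Across the 21 sections Fgf4 and Fgf15 had the highest correlation among the 10 genes, r = 0.82. The genes are neighbours on chromosome 7 in the embryo tables (mm10), Fgf4 at 144861386 to 144865243 and Fgf15 at 144896532 to 144900953, 31288 bases apart with 0 listed genes between them. Fgf3, the ligand gene on the other side of Fgf4 at 16949 bases, was at 1.49, 6.66, 14.3, 16.6, 13.5 and 1.66 FPKM along the heterozygous streak. In mesoderm Fgf3 was at 3.87 to 5.56 FPKM (heterozygous) and 5.04 to 19.5 FPKM (homozygous), while Fgf4 was at 0 to 1.61 FPKM. In culture Fgf3 was at 0.224 to 1.58 FPKM in wild type and 0.432 to 1.51 FPKM in the knock-in, with overlapping ranges, and was below the level filter.

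Other pairs of the 10 genes that ran together over the 21 sections were Spry4 and Dusp6 (r = 0.75), Dusp6 and Etv5 (r = 0.75), and Fgf8 and Dusp6 (r = 0.74). Fgf8 and Spry2 had r = 0.06. The genes most like each ligand, by the correlation of log2(FPKM + 1) over the 21 sections among 2727 genes averaging 5 FPKM or more, were Eomes, Sp5 and Tdgf1 for Fgf8 (r = 0.84, 0.80 and 0.79), Cd24a, Stmn1 and Socs2 for Fgf5 (r = 0.85, 0.85 and 0.84), Gas1, Tex10 and Psors1c2 for Fgf4 (r = 0.82, 0.78 and 0.76) and Gas1, Pmaip1 and Ptk7 for Fgf15 (r = 0.88, 0.82 and 0.76). These are descriptions over sections that share libraries, tissues and possibly embryos, and no p is attached.

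The order of mean levels differed by gene. For Fgf8 it ran from homozygous streak (23.8 FPKM) through homozygous mesoderm (11.2) and heterozygous streak (6.71) to heterozygous mesoderm (1.22). For Spry2 heterozygous streak led (95.4 FPKM), then homozygous streak (33.9), heterozygous mesoderm (25.3) and homozygous mesoderm (9.54). For Dusp6 homozygous streak led (37.3 FPKM), then heterozygous streak (26.8), homozygous mesoderm (14.0) and heterozygous mesoderm (3.77). Etv4 was low throughout, from 3.70 FPKM in heterozygous streak to 1.14 in heterozygous mesoderm, and Spry4 ran from 5.84 FPKM in homozygous streak to 1.70 in heterozygous mesoderm. Neighbours in each order overlapped, except homozygous and heterozygous mesoderm for Dusp6 and homozygous streak and homozygous mesoderm for Etv5 (10.0 and 5.18 FPKM).

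The anterior sections, 1 of each genotype and so without a replicate or a test, held little Fgf8, listed at 0 in the heterozygous and at 0.566 FPKM in the homozygous section, where the deposited interval began at 0. Fgf4 was at 1.28 and 1.19 FPKM and Fgf15 at 3.95 and 4.47 FPKM in heterozygous and homozygous tissue. Larger gaps between the pair were seen for Fgf5 (1.32 and 14.8 FPKM), Spry2 (9.01 and 40.7 FPKM), Spry4 (0.207 and 4.29 FPKM), Dusp6 (1.17 and 12.4 FPKM) and Etv5 (4.99 and 12.7 FPKM), all higher in the homozygous section. Etv4 was at 0.426 and 0.657 FPKM, and Fgfr1 was lower in the homozygous section (6.92 and 3.71 FPKM). Yam1 took 29.3% of FPKM in the heterozygous and 5.96% in the homozygous section, 8344 and 9577 genes reached 1 FPKM, and the part of these library differences in the gaps was not tested.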

How the data were processed

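RNA sequencing libraries of day 4 mouse stem cell cultures and of laser-captured embryo sections were analysed. For each library the authors deposited FPKM per gene, with an interval around each value. Per the submitters' processing notes, CASAVA and TopHat2 2.0.11 were used with mm10, and the tool that made the values is not given in the sources used here. Of the embryo positions, 90.6% share a start or end with the mm10 annotation, and of the culture positions 1.68%, so culture positions are not used here. Per the labels, culture mRNA was bead-purified and the library kit was stranded. No counts are held, so the depth is unknown and no count model was run.

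Values below 1e-06 FPKM were set to 0 and duplicated identifiers added. Genes averaging 1 FPKM or more across the libraries of a comparison were fitted on log2(FPKM + 1) with limma 3.58.1 in R 4.3.3 (trended prior, two-sided), with Benjamini-Hochberg adjustment over all genes and a threshold of 0.05 on the adjusted p. A log2 change on this scale understates changes of low genes. Layer entered as a number in genotype comparisons and as a block in tissue comparisons. Scaling used the median ratio to the geometric mean library. Fits were tested on simulated data. Alternatives were scaling, a pseudocount of 0.1, no filter or a filter at 5 FPKM, layer or replicate blocks, single sections left out and, added after seeing the data, no layer 1 or 11. Groups came from the labels. The 4 samples without a table were not analysed here, and 3 sections whose labels conflict entered no comparison. Other pathway genes were named where past the threshold, up to 6 per direction by size of change, with a mean of at least 5 FPKM in the higher group. Fgf11, Flrt3 and Fgf3, and Fgf17 in the tissue comparison, were chosen after their values were seen. The genes of the kinase relay are not reported by name here. The 10 genes and lists were chosen with earlier results of these data known. Same-numbered libraries did not deviate together (correlations of -0.117 to -0.0512 in culture, and above 0.1 for layer 1 of the streak alone, 0.476, among matched layers).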

Additional observations from a re-analysis of the deposited data

Results flagged for a closer look

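In 30 sets of 1 gene in 1 group of 4 to 10 sections, a single section stood apart from its group in 3. Chance alone gives about 1 in 20 for values drawn from 1 normal distribution. That rate need not hold for FPKM of sections from different layers, and the Fgf5 flags are not separate from its fall along the layers. Fgf5 in layer 1 was at 47.4 FPKM in heterozygous streak, where the next section was at 13.2 FPKM. Fgf5 in layer 1 was also highest in homozygous streak, at 60.5 FPKM against 15.7 FPKM for the next. Etv4 in homozygous mesoderm was at 3.39 FPKM in layer 5 and 0.922 FPKM in the next section.

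Among the 3 sections whose labels conflict, which enter no comparison, the first, with a homozygous title for streak layer 3 and a label for mesoderm layer 3, had 25.96 FPKM of Fgf8, above the 10.9 FPKM maximum of the heterozygous sections. That value lay within the 13.1 to 37.6 FPKM of homozygous streak and above the 22.2 FPKM maximum of homozygous mesoderm. The second, with a heterozygous title for mesoderm layer 3 and a label for streak layer 5, had 10.4 FPKM of Fgfr1 against a maximum of 9.94 FPKM in the heterozygous sections. Homozygous streak reached 11.4 FPKM of Fgfr1.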

How the results depend on the processing

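Of 1009 values for 63 results of single genes under all alternatives, 893 kept their direction and side of the threshold, 37 lost a call, 17 gained one and 62 changed sign, 0 of them past the threshold. In streak, scaling turned Fgfr1 to -0.12, Etv4 to -0.000555 and Etv5 to -0.22. Without layer 1 Fgf15 was 0.058, and without layer 11 Fgfr1 was -0.31, Spry4 0.033, Etv4 -0.38 and Etv5 -0.10. In mesoderm a pseudocount of 0.1 turned Fgf15 to 0.049. Over both regions Etv4 was -0.057 after scaling, -0.082 without layer 1 and -0.24 without layer 11, and Fgfr1 was 0.0038 with the pseudocount of 0.1. In the heterozygous tissue pairs scaling turned Fgf5 to 0.042, and without layer 11 Fgfr1 was -0.65. Leaving out 1 section at a time gave ranges that crossed 0 in streak for Fgf15 (-1.29 to 0.34), Fgfr1 (-0.38 to 0.31), Spry4 (-0.30 to 0.16), Etv4 (-0.40 to 0.33) and Etv5 (-0.12 to 0.22). In mesoderm they did for Fgf15 (-0.86 to 0.69), Fgfr1 (-0.13 to 0.12), Spry2 (-1.19 to 0.20) and Spry4 (-0.035 to 0.80). Over both regions they did for Fgf15 (-0.72 to 0.083), Fgfr1 (-0.23 to 0.051), Spry4 (-0.023 to 0.36) and Etv4 (-0.14 to 0.22), and in the heterozygous tissue pairs for Fgfr1 (-0.65 to 0.53). For each of these changes the cause was not tested.

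The number of the 10 genes past the threshold over both regions was 2 after scaling and 2 with a filter at 5 FPKM, against 1, and 1 to 3 with a section left out. In the homozygous tissue pairs it was 0 after scaling, 0 without a filter and 4 with a filter at 5 FPKM, against 2, and 0 to 1 with a section left out. For the heterozygous layer slope it was 0 without a filter, 0 without layer 1 and 0 without layer 11, against 1, and 0 to 1 with a section left out. Unfiltered fits test more genes.

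Same replicate numbers do not pair the culture libraries. With a replicate block the culture count was 5, with Etv5 at adjusted p = 0.0745, and with layer as a factor Fgf8 over both regions was 1.88 (adjusted p = 0.0102), Fgfr1 0.0082 and Etv4 -0.021, and in mesoderm Fgf15 was 0.20 and Fgfr1 0.042. Without the block, over all sections, the heterozygous tissue count was 1 (Dusp6, adjusted p = 0.0365) and the homozygous 3 (Spry2, Dusp6 and Etv5), and Fgf15 lost its homozygous call (adjusted p = 0.191).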
